A study of Mus musculus with 3 samples.

Results

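Cholesterol synthesis and mitochondrial fatty acid oxidation were followed in mouse 2-cell embryos through 8 genes, chosen with earlier results of these data known. 5 belong to the sterol side (Hmgcs1, Insig1, Sqle, Idi1 and Fdps) and 3 to the oxidation of fatty acids (Acaa2, Cpt2 and Acadm), of 16593 genes on the array. All 16 probes whose platform symbol is one of these genes were used, 9 for the sterol genes and 7 for the oxidation genes. The signals come from 3 arrays (Illumina mouse-8 BeadChips, which read transcripts with probes fixed to beads). 1 array held 2-cell ctrl embryos, from ovulated metaphase II (MII) eggs labelled competent. The other 2 arrays are named 2-cell NSN, with the replicate letters a and b, and their embryos came from MII oocytes labelled incompetent, which had come from the ovary with the NSN chromatin type (no ring of heterochromatin around the nucleolus) and had been cultured to the MII stage. Both groups carry the strain label F1B6C3H, were inseminated with sperm of males 5 months old, and were collected as 2-cell embryos 26 hr past insemination. The methods of the study describe females 4 to 6 weeks old, injected with 3.5 I.U. of PMSG, a gonadotropin. That description is given for the ovarian oocytes from which the NSN ones were taken. Female age and hormone treatment are not stated there for the ovulated control eggs. The NSN chromatin type and the culture to the MII stage go together in these groups and cannot be told apart.

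Cells make cholesterol from acetyl-CoA through the mevalonate pathway, whose intermediates also give rise to the isoprenoid groups attached to some proteins. When sterols are scarce, the membrane-bound SREBP transcription factors are released and switch on the genes of the pathway, and INSIG1 is one of the proteins that hold SREBP back when sterols are plentiful. Fatty acid oxidation runs the other way, as it breaks fatty acids down to acetyl-CoA inside mitochondria after carnitine has carried them in. Mouse oocytes are known to depend on their cumulus cells for part of their cholesterol, and to oxidise fatty acids during maturation.

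The promoter letters of the 2 sterol genes with a signal above background, Hmgcs1 and Insig1, are shown because SREBP is known to act on both genes. The 250 bases before the RefSeq start (GRCm38.p6) lie at chr13:119690101-119690350 (plus strand) for Hmgcs1 and at chr5:28071162-28071411 (plus strand) for Insig1. Capitals mark the sterol regulatory letters TCACNCCAC and CACCCCAC, the E-box CACGTG and the CCAAT box on either strand, where the reverse strand of CCAAT reads ATTGG.
Hmgcs1: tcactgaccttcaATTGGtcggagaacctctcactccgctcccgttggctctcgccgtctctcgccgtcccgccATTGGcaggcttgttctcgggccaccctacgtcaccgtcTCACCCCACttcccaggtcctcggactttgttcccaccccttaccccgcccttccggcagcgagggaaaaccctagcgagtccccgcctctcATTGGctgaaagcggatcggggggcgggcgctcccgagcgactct
Insig1: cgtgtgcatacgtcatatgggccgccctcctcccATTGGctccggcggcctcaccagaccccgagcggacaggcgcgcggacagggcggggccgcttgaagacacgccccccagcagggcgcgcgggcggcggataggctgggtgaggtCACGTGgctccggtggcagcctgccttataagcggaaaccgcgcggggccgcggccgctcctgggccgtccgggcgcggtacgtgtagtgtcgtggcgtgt
The Hmgcs1 stretch held the sterol regulatory letters once, as TCACCCCAC, from base 137 to base 129 before the start, and the shorter CACCCCAC lies inside them. It also held 3 CCAAT boxes. The Insig1 stretch held 1 E-box, from base 101 to base 96, and 1 CCAAT box, and neither form of the sterol regulatory letters. Of 32851 RefSeq promoter stretches of this length, 1.05% held TCACNCCAC, 2.58% CACCCCAC, 6.02% the E-box and 33.8% the CCAAT box. A single AGGTCA stood in the stretches of Hmgcs1, Insig1 and Acadm (1 each) and in 14.0% of all, and the direct repeat of it with 1 base between stood in no member and in 0.0335% of all. Stretches were held for 5 of the 8 members, Idi1 among them with 2 CCAAT boxes and Cpt2 with none of the letters searched. A match is a description of the letters and no proof of a site.

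Few probes of the array gave a signal that stood out. A probe was taken as above background from the signal at which the detection p value reaches 0.01, which was 6.10 for the control, 8.57 for NSN-a and, by assumption, 8.28 for NSN-b. By these limits the share of the 25697 probes above background was 4.22% in the control, 0.751% on NSN-a and 0.790% on NSN-b. The highest signal of an array was 2113 on the control and 348 on each NSN array, so the control array reached far higher. Markers of oocytes and early embryos summed to 289, 51.5 and 49.0 on the control, NSN-a and NSN-b (13 genes matched, of which 8 were above background in the control, 2 on NSN-a and 3 on NSN-b), and 2-cell genome activation markers to 69.0, 9.10 and 4.95 (6 genes matched, 2 above background in the control and none on an NSN array). None of 11 cumulus and granulosa cell markers, 6 sperm and testis markers or 5 blood and endothelium markers was above background. The cumulus sums were 5.22, 9.91 and 5.04. Both groups were collected as 2-cell embryos. Per the methods of the study a set amount of messenger RNA was amplified in 2 rounds, so a signal does not give the RNA per cell directly. The lower summed signals of the embryo markers move with every decrease given here, and their part in it was not tested.

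A gene was taken at its brightest probe and called different at 1.5-fold or more, provided that the control or both NSN arrays were above background. With signals under a limit set to it, 2 of the 5 sterol genes were called lower in 2-cell NSN embryos (Hmgcs1 and Insig1) and 1 of the 3 oxidation genes was called higher (Acaa2). Over the array, 422 of 949 genes above background (44.5%) were lower and 79 (8.32%) were higher, with a median log2 difference of -0.41 over the 949. That median takes in bounds against a limit, also those of the opposite sign, and is no median of measured differences. Of the 949 genes, 807 were above background in the control alone, where the filter favours a lower call. Among the 124 above background in both groups, 30 were called lower and 60 higher. The shares over the 949 are therefore largely set by the filter, and nothing is read from the number of lower sterol genes. No sterol gene was called higher and no oxidation gene lower. Sqle, Idi1, Fdps, Cpt2 and Acadm were below background on all 3 arrays, and they have no fold. The 3 measured members make up 37.5% of the 8, against 5.72% of all genes above background. As the members were chosen with earlier results of these data known, nothing is read from this share. With 1 control array no p value can be given for these counts, and an exact permutation of 1 against 2 arrays could not go below 0.33.

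**Figure D1:**
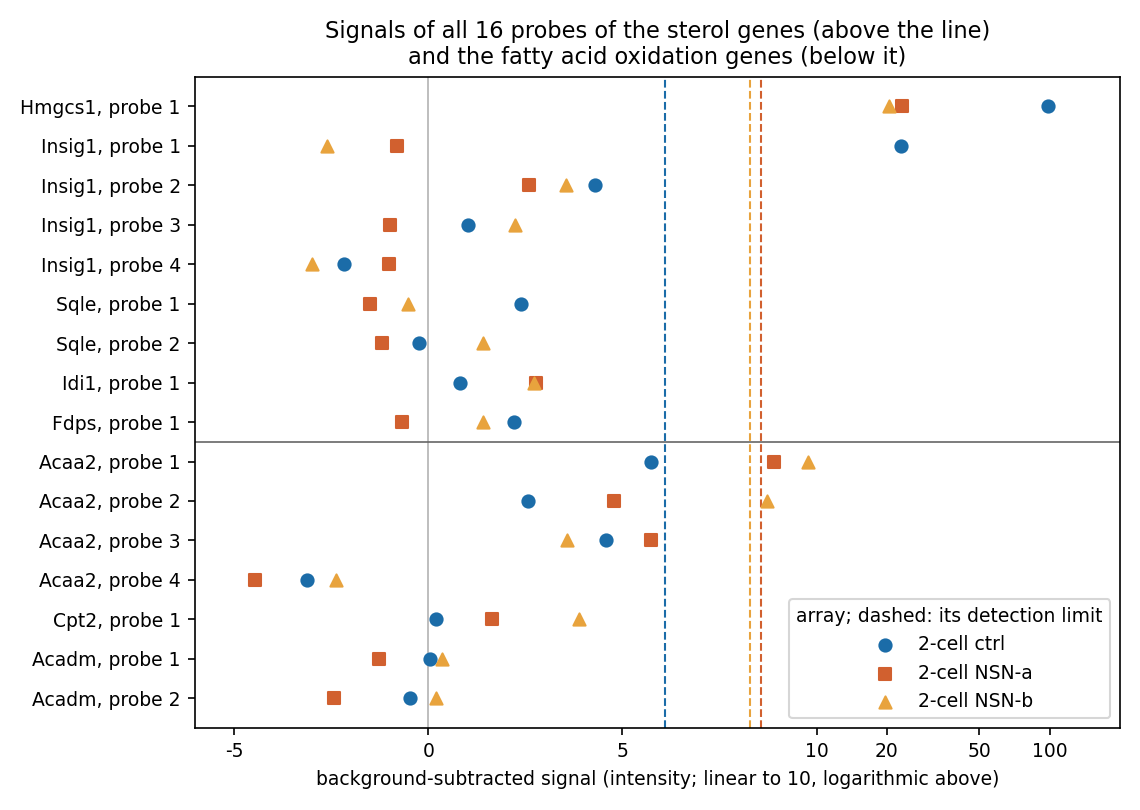
Background-subtracted signal (intensity, linear to 10 and logarithmic above) of each of the 16 probes on the 3 arrays, 1 point per array, with the detection limit of each array as a dashed line. Hmgcs1 lies above the limits on all arrays and is highest in the control at 98.3, Insig1 probe 1 is above the limit in the control alone, and Acaa2 probe 1 lies just over the limits of both NSN arrays, while 12 probes stay below every limit.

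Hmgcs1 encodes the cytosolic HMG-CoA synthase, which joins acetyl-CoA and acetoacetyl-CoA at the entry to the mevalonate pathway. It has 1 probe (ILMN_2654952), with a signal of 98.3 in the control, 23.2 on NSN-a and 20.5 on NSN-b. Both NSN arrays were thus well below the control and close to each other. The signals stood at 16.1, 2.70 and 2.48 times the limit of their arrays, which makes Hmgcs1 the only member measured on all 3 arrays. It was 4.51-fold lower in 2-cell NSN (log2 difference -2.17 with a limma SE of 0.17), with 4.24-fold on NSN-a and 4.79-fold on NSN-b, and both NSN arrays had an SD of 0.12 on the log2 scale (n = 2). In limma over the 136 probes above background on all 3 arrays the adjusted p was 0.000683, with 31 of these probes lower (22.8%) and 59 higher (43.4%). That test has 1 residual degree of freedom and takes the spread of the single control array to equal that of the NSN arrays.

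The rank of Hmgcs1 on its array did not follow its signal. It was the probe of rank 58 in the control, 55 on NSN-a and 59 on NSN-b, of 25697 probes, so its place among the brightest probes was kept while its signal fell. Of the 57 probes brighter than Hmgcs1 in the control, 17 were above background on both NSN arrays and only 10 were still brighter than Hmgcs1 on NSN-a and 9 on NSN-b. The other probes ahead of it there, 44 of 54 on NSN-a and 49 of 58 on NSN-b, had been dimmer than Hmgcs1 in the control. A similar rank therefore came with mostly other probes above it. When quantile normalization gave the arrays a common distribution, after normexp background correction with an offset of 50, the log2 difference of Hmgcs1 was 0.01 (limma SE 0.03, adjusted p 0.806), so its decrease holds on the deposited scale and not relative to rank. Among the 124 genes above background on all 3 arrays the median log2 difference was 0.56, with 30 called lower and 60 higher, and 18 of them had a larger decrease than Hmgcs1. That set leaves out the 807 genes above background in the control alone, so its median does not describe the array.

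**Figure D2:**
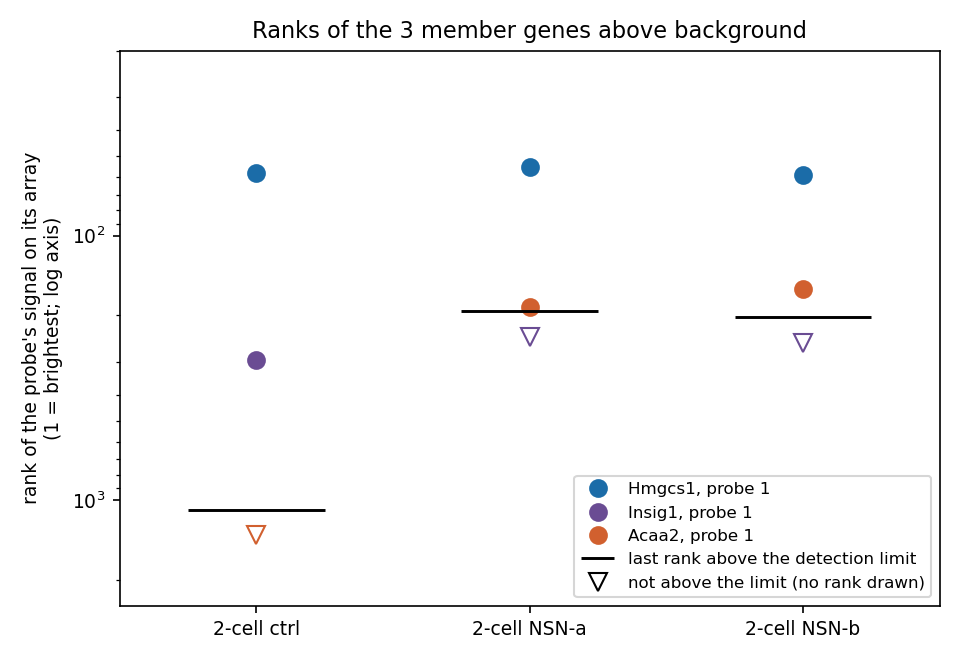
Rank of the brightest probe of Hmgcs1, Insig1 and Acaa2 on each array where it was above the detection limit (filled points, 1 is the brightest, log axis), with a black bar at the last rank above the limit and an open triangle under the bar where the probe was not above it. Hmgcs1 stays between ranks 55 and 59, Insig1 has a rank (294) in the control alone, and Acaa2 has ranks on the NSN arrays alone (186 and 159).

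The 3 genes whose log2 signals lay nearest to those of Hmgcs1 over the 3 arrays, among 123 others above background on all of them, were Dbi, Ugcg and Oosp1. Dbi, an acyl-CoA binding protein, had signals of 84.8, 18.3 and 16.5 in the control, NSN-a and NSN-b, at a Euclidean distance of 0.51 on the log2 scale. Ugcg, which makes glucosylceramide, had 75.8, 20.6 and 14.8 (distance 0.62). Oosp1, a protein secreted by oocytes, had 94.0, 30.5 and 28.9 (distance 0.63). All 3 were bright in the control and lower on both NSN arrays, which follows from their being picked by nearness to Hmgcs1.

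Insig1 has 4 probes, and 1 of them carried the difference. Probe 1 (ILMN_2895388) gave 23.1 in the control, -0.800 on NSN-a and -2.62 on NSN-b. It was the probe of rank 294 in the control. Both NSN arrays were at background, so the gene was at least 2.74-fold lower in 2-cell NSN, counted against the limits of those arrays. At the weaker limit of a detection p value of 0.05, the same probe was at least 7.12-fold lower. As it passed the background filter through the control alone, its direction was set by the filter.

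The other Insig1 probes did not show this difference. Probe 2 gave 4.29 in the control, 2.59 on NSN-a and 3.55 on NSN-b, below every limit at 0.01 and above the limits at 0.05 (2.94, 3.30 and 3.18) in the control and on NSN-b. Probe 3 gave 1.02, -0.990 and 2.22, and probe 4 gave -2.16, -1.0 and -3.00. The 3 further probes were at background on all arrays by the 0.01 limits, so none of them has a fold. The decrease of Insig1 rests on 1 probe of 4.

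The later enzymes of the sterol pathway were not measurable. Idi1, which interconverts the isoprene building blocks, gave 0.807 in the control, 2.78 on NSN-a and 2.73 on NSN-b. Fdps, which joins them to farnesyl diphosphate, gave 2.20, -0.684 and 1.41. Sqle, the squalene epoxidase, gave 2.38, -1.51 and -0.530 at its first probe and -0.231, -1.19 and 1.42 at its second. These signals lie within the background of their arrays, and their order between arrays carries no difference. Across the 9 sterol probes, 5 were lower on both NSN arrays than in the control, 1 was higher on both and 3 fell between, beside 35.6% lower and 30.0% higher on both over all 25697 probes.

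Acaa2 encodes the mitochondrial ketothiolase that releases acetyl-CoA in the last step of each round of fatty acid oxidation. Its probe 1 (ILMN_2704822) gave 5.74 in the control, 8.89 on NSN-a and 9.79 on NSN-b. The control was just below its limit, at 0.940 times it, and the NSN arrays were just above theirs, at 1.04 and 1.18 times. The gene was at least 1.53-fold higher in 2-cell NSN, counted against the limit of the control array, with at least 1.46-fold on NSN-a and 1.60-fold on NSN-b, so NSN-a alone did not reach the threshold of 1.5. Probe 1 had rank 186 on NSN-a and 159 on NSN-b, of the 193 and 203 probes above background there. With the limits used for the calls it passed the filter through the NSN arrays alone, so its direction there was set by the filter. At the weaker limit of a detection p value of 0.05, probe 1 was above background on every array and 1.63-fold higher. The filter did not set its direction at that limit. The difference was not tested with limma, as the control is not above the stricter limit used for that test.

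The other Acaa2 probes were mixed. Probe 2 gave 2.56 in the control, 4.79 on NSN-a and 8.71 on NSN-b, higher on both NSN arrays and above the limit on NSN-b alone. Probe 3 gave 4.57, 5.73 and 3.56, so the NSN arrays lay on either side of the control. It was above the limit at a detection p value of 0.05 on every array, without a common direction. Probe 4 gave -3.12, -4.47 and -2.39, below zero on every array. Probes 1 and 2 were thus higher on both NSN arrays, and probes 3 and 4 were not.

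Cpt2 and Acadm act before Acaa2 in the same pathway. Cpt2, which turns acylcarnitine back into acyl-CoA at the inner mitochondrial membrane, gave 0.189 in the control, 1.64 on NSN-a and 3.87 on NSN-b, the last above the 0.05 limit of its array. Acadm, the medium-chain acyl-CoA dehydrogenase, gave 0.0509, -1.28 and 0.363 at its first probe and -0.465, -2.44 and 0.207 at its second. Both genes were below background at 0.01 on every array. Of the 7 oxidation probes, none was lower on both NSN arrays, 3 were higher on both and 4 fell between, again beside 35.6% lower and 30.0% higher over all probes. Most of these probes are at background, and nothing is read from the counts.

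The sterol genes cannot be compared with the oxidation genes as pathways on these arrays. At the 0.01 limits Hmgcs1 is the 1 member whose direction the background filter left free, and no oxidation gene was above background in both groups. The whole pathways had about the share of genes above background that the array had (5.72% of all genes), 6.67% for sterol synthesis and 5.26% for fatty acid oxidation. Of 20 sterol synthesis genes, 15 matched a probe and 1 was above background (Hmgcs1, lower), and of the 14 others the highest signals were 4.30 in the control, 5.27 on NSN-a and 2.73 on NSN-b. Tm7sf2, a sterol reductase, was the brightest of these over the 3 arrays with 4.30, 5.27 and 0.748. Of 21 fatty acid oxidation genes, 19 matched and 1 was above background (Acaa2, higher). At the limits of 0.05 the numbers above background were 2 and 1 genes, with 1 lower in sterol synthesis and 1 higher in oxidation. Over the array 2485 of 16593 genes were above background at those limits, with 917 called lower and 212 higher. Nothing is read from list counts this small.

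**Figure D3:**
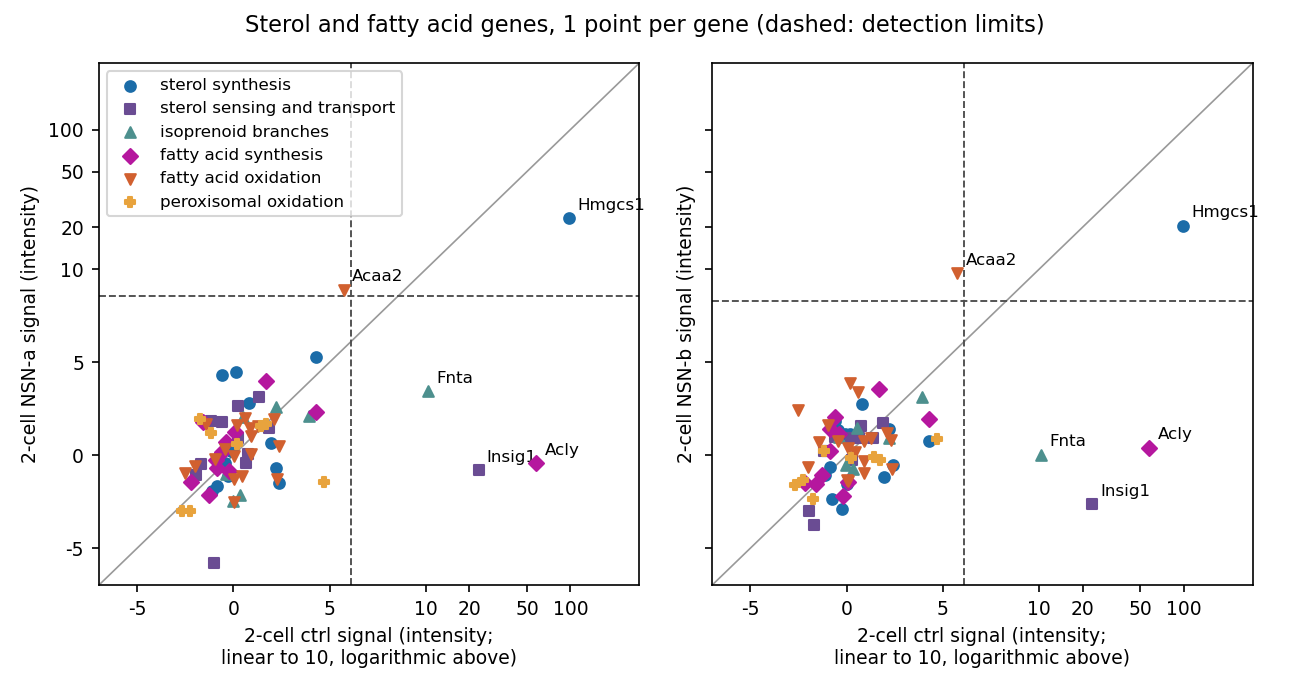
Signal of each gene of 6 sterol and fatty acid lists on the NSN-a array (left) and the NSN-b array (right) against 2-cell ctrl (intensity, linear to 10 and logarithmic above), with dashed lines at the detection limits and a line of equal signal. Nearly all genes lie in the background corner, Hmgcs1, Insig1, Acly and Fnta lie below the line of equal signal, and Acaa2 lies above it.

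The neighbouring pathways held 0 or 1 gene above background each, beside the 5.72% of all genes. In sterol sensing and transport 12 of 16 genes matched, and Insig1 was the one above background. Its partner Scap, which escorts SREBP, gave 1.87, 1.44 and 1.72, and Srebf2, the SREBP gene best known for sterol synthesis, gave 1.35, 3.12 and 0.932, both at background. In the isoprenoid branches (7 of 9 matched) Fnta, the subunit shared by protein farnesyltransferase and a related prenyl transferase, gave 10.3, 3.42 and 0.0311, at least 1.23-fold lower and short of the threshold. With the 0.05 limits it was at least 3.13-fold lower and passed it. In fatty acid synthesis 12 of 13 genes matched. Acly, the ATP citrate lyase that supplies cytosolic acetyl-CoA to both sterol and fatty acid synthesis, was the one above background. It gave 58.0 in the control, -0.441 on NSN-a and 0.397 on NSN-b, at least 6.89-fold lower. Insig1, Fnta and Acly each passed the filter through the control alone, so their direction was set by the filter. Acly has 1 probe, and its difference after quantile normalization is not given here. None of 8 matched genes of peroxisomal oxidation and none of 9 matched lipid transcription factors was above background.

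The 3 member differences did not respond alike to the processing. Hmgcs1 kept its decrease with either NSN array left out, from -2.26 to -2.09 on the log2 scale, with other detection limits and with the signals rescaled between arrays (-2.67), and lost it in each of 3 runs with quantile normalization (0.01 to 0.02). Insig1 was lower in those runs at offsets of 16 (-0.73) and 0 (-3.77) and under the threshold at 50 (-0.30). Acaa2 was higher at offsets of 16 (0.65) and 0 (1.63), was under the threshold at 50 (0.31), and lost its call on the deposited scale when the arrays were rescaled (0.12) or when NSN-b was left out (0.54). Quantile normalization thus removed the decrease of Hmgcs1 at every offset, and left Insig1 lower at every offset, short of the threshold at 50. For Hmgcs1 these runs are not separate checks, as the offset leaves its rank on each array unchanged. At the 0.01 limits Insig1 passed the filter through the control alone and Acaa2 through the NSN arrays alone. Their kept directions are therefore no check on the processing. The rescaling used the median ratio of the probes above background on all 3 arrays, so it rests on that filtered set.

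**Figure D4:**
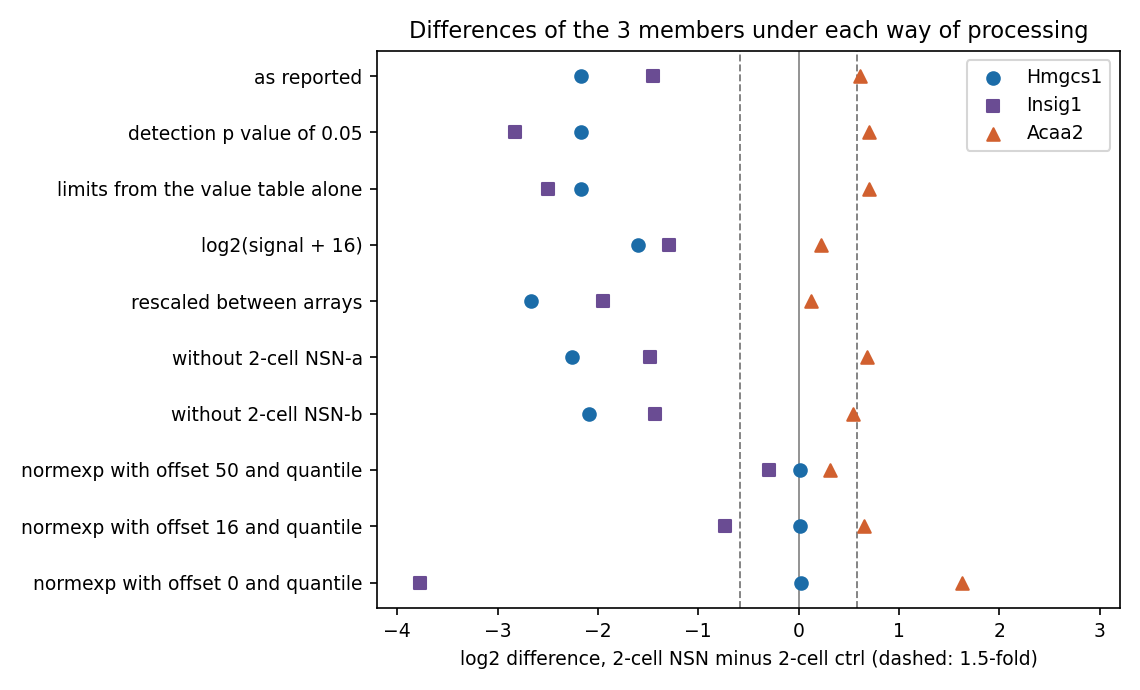
Log2 difference between 2-cell NSN and 2-cell ctrl of Hmgcs1, Insig1 and Acaa2, 1 point per gene, as reported and under 9 other ways of processing, with dashed lines at 1.5-fold. Hmgcs1 sits at about 0 in the 3 runs with quantile normalization and at -1.60 or lower in the others, Insig1 is below 0 throughout, and Acaa2 lies between 0.12 and 1.63.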

How the data were processed

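Per the methods of the study, messenger RNA of the embryos was amplified in 2 rounds, labelled with biotin and hybridised to the arrays. The authors subtracted the background, applied rank-invariant normalization and filtered against negative control beads. BeadStudio 3 stands in the submitters' processing notes. The deposited values are intensities on a linear scale, negative where a signal fell under background, and their exact normalization between arrays stays unknown. A second table holds 3 columns that no sample label matches, and it was left out.

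Detection limits were read from 1188 rows of a supplementary table that pair signals with detection p values, of which 896 matched exactly 1 probe (within 0.002%). For NSN-b no p value was held, and the limit of NSN-a was scaled by the spread of signals under the median (1.74 against 1.80). Each signal was raised to its limit where lower and taken to log2, and both NSN arrays were averaged. Bounds that the limits give with the opposite sign were not given as folds, but they stay in the median over the 949 genes. The moderated test used limma 3.58.1 (R 4.3.3), an intensity trend and adjustment after Benjamini and Hochberg. Python 3.11.15, pandas 2.3.3, numpy 2.4.6 and matplotlib 3.10.9 were used for the rest.

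The text names all members with every probe, the called genes of each pathway list and up to 4 further genes of it above a limit, and the 3 genes nearest to each member above background on all arrays. Scap and Srebf2 were named after their values were seen. The members and lists were chosen with earlier results of these data known. That the 2 NSN arrays came from separate embryos is not stated in the sources used here, so their spread may be technical, and 3 arrays give limited precision.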

Additional observations from a re-analysis of the deposited data

How the results depend on the processing

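On the deposited scale 2 sterol members were lower. That number was 0 after normexp with an offset of 50 and quantile normalization, and 1 with offsets of 16 and 0 (both offsets chosen after seeing the data) and with the mean of the probes of a gene, where the Insig1 mean in the control was above its limit but under the limits of the NSN arrays, so that it has no fold. The sterol synthesis list went from 1 lower gene to 0 in each of the 3 quantile runs, where the log2 difference of Hmgcs1 was 0.01 (offset 50), 0.01 (offset 16) and 0.02 (offset 0), and the limma estimate changed from -2.17 to 0.01. Acaa2 is the 1 higher gene among the oxidation members and in the oxidation list. Both counts were 0 with log2(signal + 16), with normexp at an offset of 50 and quantile normalization, at a fold of 2, with the mean of the probes, with rescaling between arrays, and with both NSN arrays past the fold, and ranged from 0 to 1 when either NSN array was left out (0 without NSN-b). The counts of sterol members and list genes called higher, and of oxidation members and list genes called lower, were 0 under all 12 alternatives. Genes below background could not be called, and at the 0.01 limits the filter left only Hmgcs1 free in direction. Nothing is therefore read from these counts. Over the whole array, quantile normalization gave 56 lower and 52 higher genes at an offset of 50, 248 and 119 at 16, and 674 and 169 at 0, against 422 and 79 as reported. At the 0.05 limits the counts were 917 and 212, with limits from the deposited values alone 758 and 170, rescaled 573 and 33, at a fold of 2 315 and 34, and with log2(signal + 16) 510 and 29. The cause of these shifts was not tested. limma could not be run with an NSN array left out, as no residual degrees of freedom remain. No paired analysis was possible because the control is a single array with no replicate label. 12 of the 16 member probes are under every 0.01 limit, so differences among them were not detectable here.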
